A study of Mus musculus with 12 samples.

Results

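The genes described here are the subunits of oxidative phosphorylation, the chain of protein complexes in the inner mitochondrial membrane that passes electrons to oxygen and uses the resulting proton gradient to make ATP. Membership was set by gene name: protein-coding genes whose symbols begin with Nduf, Uqcr, Atp5, Cox4, Cox5, Cox6, Cox7 or Cox8, the genes Sdha, Sdhb, Sdhc and Sdhd, and the protein-coding genes of the mitochondrial genome. The members were chosen by name alone, but the set was picked for description after results of these data, the log2 changes of mitochondrial and nuclear subunits among them, were known, so counts over members describe these libraries. This gave 111 of the 78298 gene identifiers in the count table, 98 encoded in the nucleus and 13 in mitochondrial DNA. The 98 nuclear genes comprised 38 of complex I, 8 complex I assembly factors (Ndufaf), 4 of complex II, 8 of complex III, 21 of complex IV (with Ndufa4 and Ndufa4l2 placed there) and 19 of complex V. Of the 13 mitochondrial genes, 7 belong to complex I, 1 to complex III, 3 to complex IV and 2 to complex V. The filter on low counts kept 106 members (94 nuclear and 12 mitochondrial) of 22190 genes tested. The 5 left out were mt-Atp8 with 39 counts in all libraries together, Cox7b2 with 1 count, and Ndufb11b, Cox8c and 1 of 2 identifiers named Atp5po with 0 counts.

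The data were RNA-seq gene counts from 12 mouse lung libraries, 3 in each of 4 groups. Normal lung tissue lying next to tumours and macroscopic LLC tumours were cut out by hand, and each kind of tissue came from mice labelled HDM (house dust mite) or VEH. The labels do not spell out LLC or VEH and give no strain, sex, age, genotype, dose or duration; all 12 libraries carry the same batch label. Library totals ran from 20608682 to 32765364 counts.

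Most subunits of the complexes are nuclear genes, translated in the cytosol and imported, while mitochondrial DNA keeps a small set of core membrane subunits that are transcribed as long polycistronic RNAs and translated on mitochondrial ribosomes. Complex II has no mitochondrially encoded subunit. Because each of the other complexes joins products of both genomes, the RNA of the nuclear and the mitochondrial genes of a complex can be compared within a library.

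The labels were checked against markers before the members were compared. All 12 cell cycle genes listed were called higher in tumours in both comparisons (adjusted p below 0.05 by edgeR), and all 12 endothelial genes lower. Of all genes tested 18.2% were called higher and 20.6% lower with VEH, and 23.0% and 28.9% with HDM. Summed alveolar epithelial markers stood at 19034 to 49502 CPM (a gene's counts relative to the library total, scaled by TMM) in normal lung and at 125 to 9787 CPM in tumours. The library names hold a prefix that is shared by 1 normal and 1 tumour library each, and for 2 of the 6 prefixes the pair carries different treatment labels (normal VEH replicate 2 pairs with tumour HDM replicate 2, while tumour VEH replicate 3 pairs with normal HDM replicate 3). Calls of named genes that were lost without these 4 libraries are therefore given, as are the median changes without them. Beside any difference between bulk samples, fewer cells of a type and less RNA per cell cannot be told apart.

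Some mitochondrial genes have a near-identical copy in the nuclear genome, and this bears on how their counts can be read. Aligning the mitochondrial genome to the nuclear chromosomes (GRCm39) found a copy on the minus strand of chromosome 1, chr1:24650616-24655269, which matched chrM:6390-11042 at 99.936% identity over 4654 aligned bases. It differed by 2 substitutions, A6393T in mt-Co1 and T9461C in mt-Nd3 (positions along the mitochondrial genome, the mitochondrial base first), and by 1 added base in the copy. The stretches around both substitutions are shown because these are the places where a read from a mitochondrial subunit gene could be told from the copy. They run from chrM:6390-6423 against chr1:24655236-24655269 for mt-Co1 and from chrM:9431-9491 against chr1:24652168-24652228 for mt-Nd3, with the differing base in capitals.
mt-Co1, mitochondrial genome: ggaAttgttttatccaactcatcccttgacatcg
mt-Co1, chromosome 1 copy: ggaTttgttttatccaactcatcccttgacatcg
mt-Nd3, mitochondrial genome: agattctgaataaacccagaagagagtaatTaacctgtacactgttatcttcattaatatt
mt-Nd3, chromosome 1 copy: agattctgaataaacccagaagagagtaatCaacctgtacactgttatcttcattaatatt

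The first 60 bases of mt-Co2 (chrM:7013-7072) were the same as in the copy (chr1:24654587-24654646, minus strand), whereas the first 60 bases of mt-Cytb (chrM:14145-14204), which lies outside it, differed at 3 bases from their closest nuclear match (chr4:79922226-79922285, plus strand, in an alignment of 93.009% identity). These are shown as an example of a subunit gene that cannot be told from its nuclear copy and of one that can, with differing bases in capitals.
mt-Co2, mitochondrial genome: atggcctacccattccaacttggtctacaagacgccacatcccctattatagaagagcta
mt-Co2, chromosome 1 copy: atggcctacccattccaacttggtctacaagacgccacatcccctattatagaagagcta
mt-Cytb, mitochondrial genome: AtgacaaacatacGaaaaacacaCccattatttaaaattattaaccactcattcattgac
mt-Cytb, chromosome 4 copy: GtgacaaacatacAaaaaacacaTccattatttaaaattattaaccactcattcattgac

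The counted level of the mitochondrial subunits went with their position relative to the copy. The 5 genes wholly outside it (mt-Nd1, mt-Nd2, mt-Nd5, mt-Nd6 and mt-Cytb) had mean levels of 1176 to 3025 CPM per kilobase over the 12 libraries. The 6 genes wholly inside it (mt-Co2, mt-Atp8, mt-Atp6, mt-Co3, mt-Nd3 and mt-Nd4l) had 0.616 to 40.0 CPM per kilobase and together made up 0.160% of the counts of the 13 genes. mt-Co1, with 31.3% of its length in the copy, had the highest level of all 13 at 5459 CPM per kilobase, and mt-Nd4, with 63.6%, had 1315. The pseudogenes annotated on the copy had few counts too, from 0 for Gm28438 and 244 for Gm10222 to 2892 for Atp6-ps over all 12 libraries. The noncoding RNA gene Gm71269 there also had 0. How reads that match several places were handled is not given in the sources used here, and its part in these low levels was not tested. The results for mitochondrial genes below therefore name the 5 genes outside the copy separately.

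**Figure D1:**
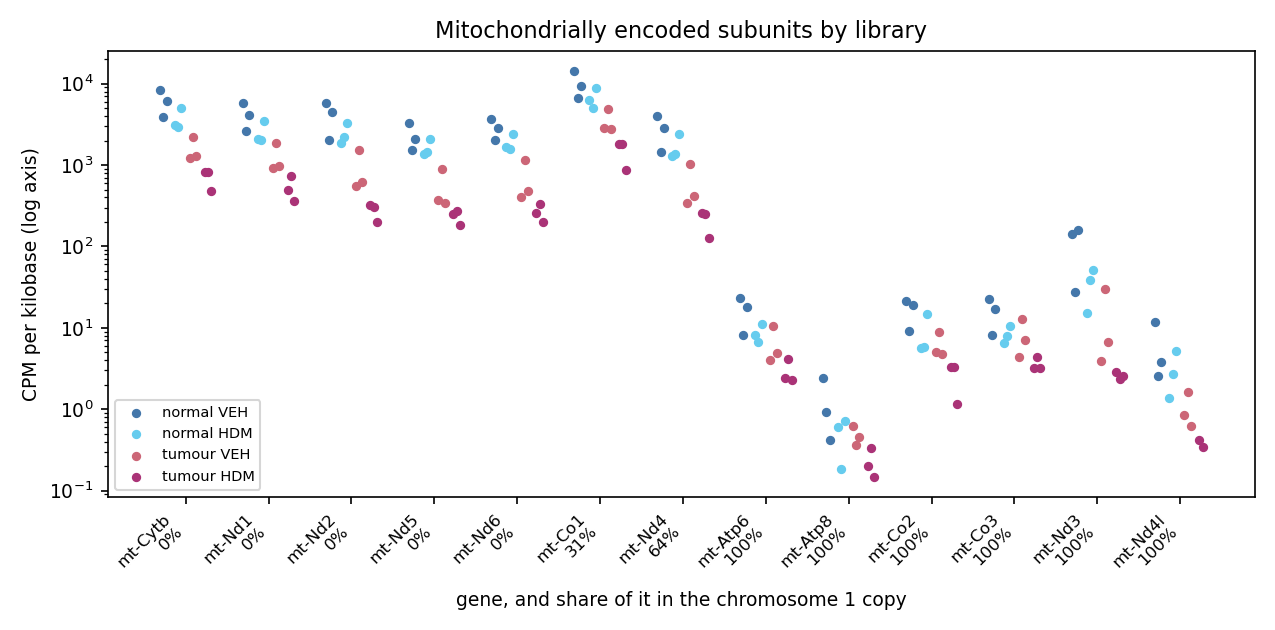
Level of each mitochondrially encoded subunit in each library, in CPM per kilobase of gene length on a log axis; each point is 1 library, coloured by group, and the percentage under each gene is the share of its length in the chromosome 1 copy (libraries with 0 counts are not drawn). The means of the 6 genes wholly in the copy, 0.616 to 40.0, lie below those of all others, though single libraries overlap (mt-Nd3 reaches 158.5 and mt-Nd4 goes down to 128.1).

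The mitochondrial subunits took a smaller share of all counts in tumours than in normal lung, while the nuclear members did not. In normal VEH libraries the 13 mitochondrial genes held 5.11%, 2.46% and 3.60% of counts (replicates 1 to 3) and in normal HDM libraries 2.15%, 1.90% and 3.50%. In tumours they held 0.871%, 1.73% and 0.928% with VEH and 0.613%, 0.615% and 0.333% with HDM. Every normal library was above every tumour library, and the tumour groups did not overlap each other, whereas the normal groups did. The group means were 3.73% ± 1.33 (SD, n = 3) in normal VEH, 2.52% ± 0.860 in normal HDM, 1.18% ± 0.480 in tumour VEH and 0.521% ± 0.162 in tumour HDM.

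The 98 nuclear members held 0.773%, 0.777% and 0.766% of counts in normal VEH libraries, 0.673%, 0.669% and 0.669% in normal HDM, 0.871%, 0.956% and 0.864% in tumour VEH and 0.736%, 0.778% and 0.920% in tumour HDM. All VEH values of normal lung were above all HDM values, and the 2 normal groups were each tight. The tumour groups overlapped each other. Within each treatment every tumour library was above every normal library. Across treatments this did not hold, since tumour HDM replicate 1 (0.736%) was below all normal VEH libraries.

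Dividing the mitochondrial by the nuclear counts within each library gave 6.61, 3.17 and 4.70 in normal VEH, 3.20, 2.84 and 5.23 in normal HDM, 1.00, 1.81 and 1.07 in tumour VEH, and 0.833, 0.790 and 0.362 in tumour HDM. The mean ratio was 3.73 times higher in normal lung than in tumours with VEH and 5.68 times higher with HDM. The same folds were 3.44 and 5.21 with counts per kilobase, and 3.47 and 4.67 without assembly factors and members that overlap another tested gene. In each of the 6 pairs of libraries that share a prefix the ratio was lower in the tumour, by 2.60 to 8.83 times. Each of the 12 mitochondrial genes tested was lower in the tumour in all 6 pairs, while of the 94 nuclear members 19 were lower and 12 higher in all 6. Pair directions were taken for the members only. These counts therefore have no share of all genes to be set against.

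**Figure D2:**
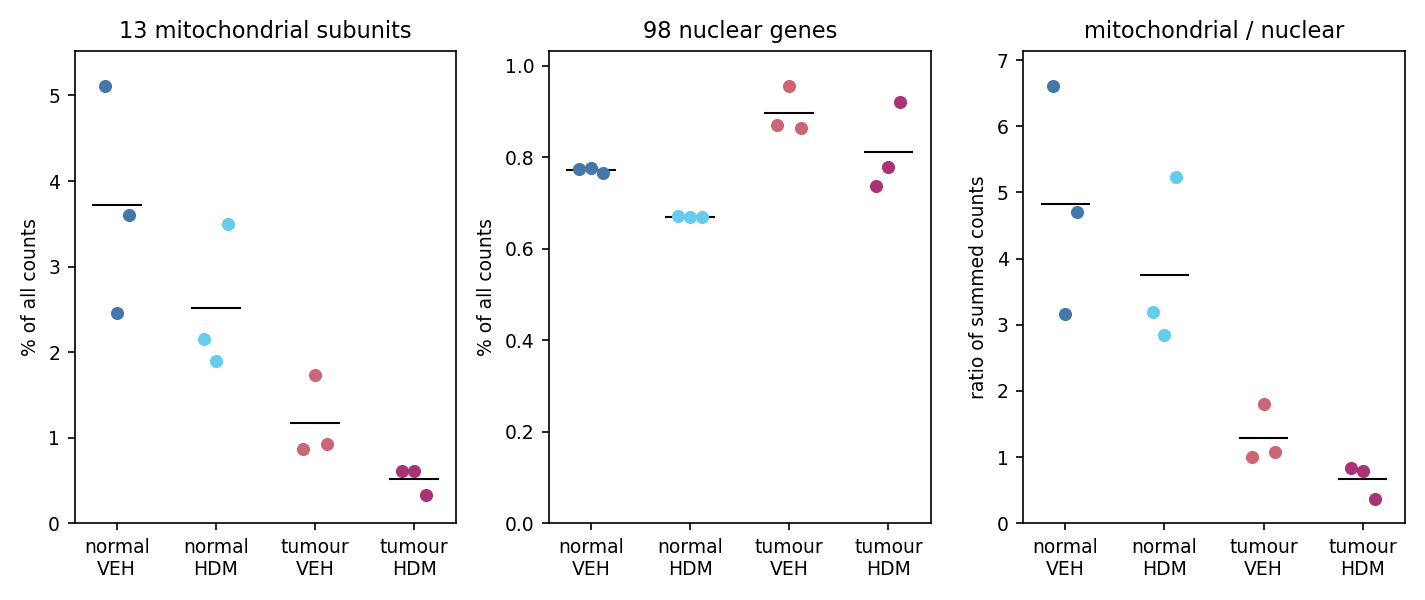
Share of all counts held by the 13 mitochondrial subunits (left) and the 98 nuclear members (middle), and the ratio of the sums (right), by group; each point is 1 library and each bar a group mean. The mitochondrial share and the ratio are lower in all 6 tumour libraries than in all 6 normal ones, while the nuclear share lies between 0.669% and 0.956% throughout.

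In normal lung the 2 sets did not split the libraries alike. The nuclear share separated the libraries by treatment label, with normal VEH replicate 2 (0.777%) beside the other VEH libraries and normal HDM replicate 3 (0.669%) beside the other HDM libraries. The mitochondrial share did not: normal VEH replicate 2 (2.46%) lay next to normal HDM replicates 1 and 2, and normal HDM replicate 3 (3.50%) next to normal VEH replicate 3. These 2 libraries are the normal ones with conflicting prefixes. Normal VEH replicate 2 and normal HDM replicates 1 and 2 also had the highest summed macrophage and monocyte markers, 5975 to 8649 CPM against 310 to 360 CPM in the other 3 normal libraries. The macrophage and monocyte sums cover 10 listed genes, Chil3 among them, and are not given gene by gene here, so a gene with many counts can carry them. Summed adipose and alveolar markers were highest in the same libraries as the macrophage and monocyte sums. The part of cell makeup or of the labels in this was not tested.

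Gene by gene, edgeR's quasi-likelihood test with Benjamini-Hochberg adjustment over all 22190 genes called 30 members changed between tumour and normal lung with VEH (8 higher, 22 lower) and 36 with HDM (12 higher, 24 lower), at adjusted p below 0.05. The background was high, since 38.9% of all genes tested were called with VEH (18.2% higher, 20.6% lower) and 51.9% with HDM (23.0% higher, 28.9% lower). Of the 12 mitochondrial genes 10 fell with VEH (83.3%) and 12 with HDM, above that background, while the nuclear share called lay below it. Of the 94 nuclear members 20 were called with VEH (21.3%, 8 higher and 12 lower) and 24 with HDM (25.5%, 12 higher and 12 lower). The median log2 fold change was -2.02 with VEH and -2.59 with HDM for the mitochondrial genes, -0.09 and -0.11 for the nuclear members, and -0.11 and -0.08 for all genes tested. With library size as the only scaling the medians of all genes moved to 0.03 and 0.10, and the members called split as 14 higher and 16 lower with VEH and 18 and 20 with HDM. With VEH the number of members called was 15 without normal VEH replicate 3, 20 without normal VEH replicate 1, 43 without tumour VEH replicate 2, 18 without tumour VEH replicate 1, 17 without tumour VEH replicate 3 and 17 without the 4 libraries of conflicting prefixes. The share of all genes called under these other settings is not given here. Whether these counts follow the number of all genes called was not tested.

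**Figure D3:**
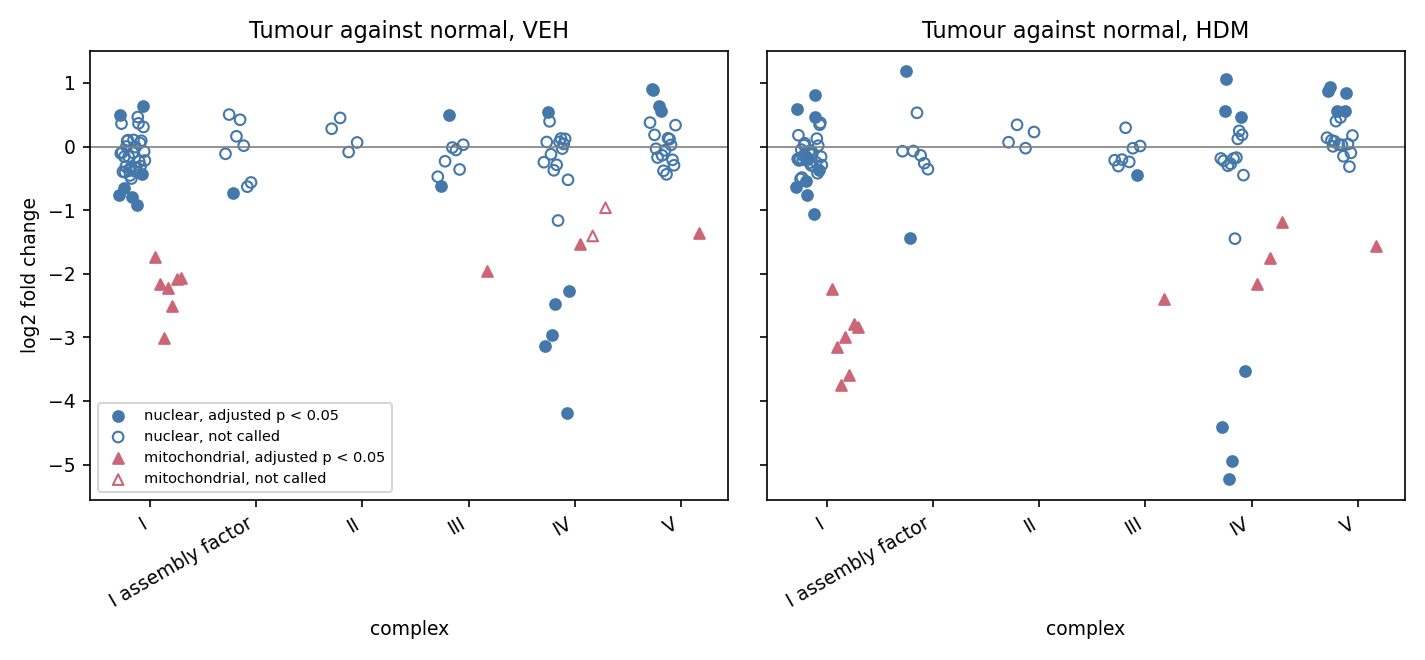
Log2 fold change of each tested member between tumour and normal lung, with VEH (left) and HDM (right), by complex; circles are nuclear and triangles mitochondrial genes, filled where adjusted p is below 0.05 (Cox8b, with 0 counts in all tumour HDM libraries, is left out on the right). All 12 mitochondrial genes lie below 0 in both panels, while nuclear members of each complex lie on both sides of 0.

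Complex I takes electrons from NADH and has the largest set of mitochondrially encoded subunits, ND1 to ND6 and ND4L, which form its membrane arm. mt-Nd5 stood at 6006, 2788 and 3789 CPM in normal VEH, 2470, 2629 and 3820 in normal HDM, 684, 1644 and 630 in tumour VEH, and 452, 502 and 331 in tumour HDM. All tumour libraries were below all normal ones, and tumour VEH replicate 2 was the nearest to normal lung. The log2 fold change of mt-Nd5 between tumour and normal was -2.09 ± 0.41 (SE; adjusted p = 0.0034) with VEH and -2.80 ± 0.42 (adjusted p = 0.000506) with HDM.

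The other mitochondrial complex I genes fell as well. With VEH the log2 change was -1.74 ± 0.40 for mt-Nd1, -2.17 ± 0.48 for mt-Nd2, -2.22 ± 0.51 for mt-Nd4 and -2.07 ± 0.40 for mt-Nd6. With HDM the same genes changed by -2.24 ± 0.41, -3.15 ± 0.50, -3.0 ± 0.53 and -2.84 ± 0.41. These 4 genes, mt-Nd5 and mt-Cytb were called with VEH under each of the 16 alternative settings tried. mt-Nd3 and mt-Nd4l, counted at low levels inside the copy, changed by -3.01 ± 0.84 (adjusted p = 0.0179) and -2.51 ± 0.90 (adjusted p = 0.0464) with VEH and by -3.75 ± 0.89 and -3.58 ± 1.01 with HDM. With VEH the adjusted p of mt-Nd3 was 0.0532 without normal VEH replicate 3, 0.0576 without the 4 libraries of conflicting prefixes, 0.057 without tumour VEH replicate 1 and 0.0724 without tumour VEH replicate 3. That of mt-Nd4l missed the threshold without any 1 of normal VEH replicates 1 and 3 and tumour VEH replicates 1, 2 and 3 (0.215, 0.0657, 0.14, 0.053 and 0.151), as it did without the 4 libraries of conflicting prefixes (0.134 with VEH and 0.0917 with HDM) and with the prefix as a block (0.128 and 0.0524). With VEH it also missed it with the replicate number as a block (0.0917), library size scaling (0.0565) and no filter (0.0751), and mt-Nd3 did with no filter (0.0608) and with only the groups compared (0.0567). With VEH the groups overlapped for mt-Nd3, where tumour VEH replicate 2 (10.3 CPM) was above normal VEH replicate 2 (9.56 CPM).

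mt-Cytb, the cytochrome b of complex III and its only mitochondrially encoded subunit, stood at 9657, 4398 and 6944 CPM in normal VEH, 3581, 3319 and 5800 in normal HDM, 1388, 2552 and 1467 in tumour VEH, and 934, 935 and 547 in tumour HDM. The tumour groups lay below the normal groups with no overlap. The log2 change was -1.96 ± 0.37 (adjusted p = 0.00298) with VEH and -2.39 ± 0.38 (adjusted p = 0.000637) with HDM.

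mt-Co1, the catalytic subunit of cytochrome c oxidase (complex IV), stood at 22065, 10433 and 14378 CPM in normal VEH, 9794, 7813 and 13497 in normal HDM, 4407, 7524 and 4321 in tumour VEH, and 2828, 2819 and 1330 in tumour HDM. No tumour library reached the lowest normal one, though tumour VEH replicate 2 was close to normal HDM replicate 2. Its log2 change was -1.53 ± 0.38 (adjusted p = 0.0109) with VEH and -2.16 ± 0.39 (adjusted p = 0.00134) with HDM. The VEH call was lost without tumour VEH replicate 1 (log2 change -1.29, adjusted p = 0.0619), without tumour VEH replicate 3 (-1.29, 0.0611) and without the 4 libraries of conflicting prefixes (-1.51, 0.0555).

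The complex IV and V genes counted at low levels inside the chromosome 1 copy also had log2 changes below 0. mt-Co2 changed by -1.41 ± 0.54 with VEH (adjusted p = 0.0584, not called) and -1.75 ± 0.55 with HDM (adjusted p = 0.0204), and mt-Co3 by -0.96 ± 0.45 with VEH (adjusted p = 0.107, not called) and -1.19 ± 0.45 with HDM (adjusted p = 0.0457). mt-Atp6, a subunit of the proton channel of ATP synthase (complex V), changed by -1.36 ± 0.48 with VEH (adjusted p = 0.0432) and -1.57 ± 0.48 with HDM (adjusted p = 0.0195). With VEH the groups overlapped for mt-Co3 and mt-Atp6, and several of these calls rested on single libraries. The VEH call of mt-Atp6 was lost without normal VEH replicates 1 or 3 or tumour VEH replicates 1 or 3 (adjusted p = 0.153, 0.103, 0.174 and 0.161) and without the 4 libraries of conflicting prefixes (0.0769). Its HDM call was lost without tumour HDM replicates 1 or 3 (0.0818 and 0.0886) and without normal HDM replicate 3 (0.0814). With the prefix as a block both its calls were lost (0.0802 with VEH and 0.0617 with HDM), and its VEH call also with the replicate number as a block (0.0714), library size scaling (0.0605), no filter (0.068) and only the groups compared (0.0976). The HDM call of mt-Co2 was lost without tumour HDM replicate 3 (0.0852), normal HDM replicate 3 (0.133) or the 4 libraries of conflicting prefixes (0.119). Without any 1 of the 6 HDM libraries the adjusted p of mt-Co3 ran from 0.052 to 0.173, and it was 0.149 without the 4 of conflicting prefixes, 0.171 with the prefix block, 0.0733 with the replicate number as a block, 0.0709 with library size scaling and 0.057 with no filter. With VEH, mt-Co2 and mt-Co3 were called without normal VEH replicate 2 (0.0336 and 0.0376) or tumour VEH replicate 2 (0.048 and 0.031), and mt-Co2 also with the strict filter (0.0383) and by DESeq2 (0.0228). Taking the 5 genes outside the copy alone, 5 of 5 were called lower in each comparison, with median log2 changes of -2.07 with VEH and -2.80 with HDM. Of all genes 20.6% were called lower with VEH and 28.9% with HDM.

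Counts of mitochondrial genes that encode no protein were lower in tumours too, though what these counts stand for is uncertain. The ribosomal RNA genes mt-Rnr1 and mt-Rnr2 together held only 0.00844% to 0.244% of counts per library, and how RNA was selected is not resolved. The transfer RNA genes mt-Tw and mt-Ts1 overlap mt-Nd2 and mt-Co1. The part of reads from neighbouring genes was not tested. Of the 24 ribosomal and transfer RNA genes of the mitochondrial genome 10 passed the filter, of which 9 were called lower with VEH and 10 with HDM, with median log2 changes of -2.83 and -4.13. Of all genes 20.6% and 28.9% were called lower. The 16S ribosomal RNA gene mt-Rnr2 changed by -2.75 ± 0.57 and -3.53 ± 0.59.

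Among the nuclear subunits of complex I, 7 of 37 tested were called with VEH (2 higher, 5 lower) and 8 with HDM (3 higher, 5 lower). These are 18.9% and 21.6%, against 38.9% and 51.9% of all genes. The median log2 changes were -0.16 and -0.18. Ndufc2, a small membrane-arm subunit, stood at 144, 85.8 and 118 CPM in normal VEH, 78.4, 90.5 and 85.8 in normal HDM, 60.0, 79.3 and 44.5 in tumour VEH, and 34.8, 43.0 and 44.2 in tumour HDM. With each treatment all tumour values were below all normal values, and the groups were farther apart with HDM. Its log2 change was -0.92 ± 0.23 (adjusted p = 0.0105) with VEH and -1.06 ± 0.23 (adjusted p = 0.00336) with HDM; the VEH call was lost without tumour VEH replicate 3 (log2 change -0.64, adjusted p = 0.0538) and with only the groups compared (-0.89, 0.0506).

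Ndufa1, an accessory subunit, fell in both comparisons, by -0.77 ± 0.17 and -0.64 ± 0.17. Ndufb4 fell with VEH by -0.79 ± 0.23 (adjusted p = 0.0219), a call lost without any 1 of normal VEH replicates 1 and 3 and tumour VEH replicates 1 and 3 (adjusted p = 0.0582, 0.0908, 0.0624 and 0.109) or the 4 of conflicting prefixes (0.0588), and with only the groups compared (0.0515), and had a log2 change of -0.09 ± 0.23 with HDM. Ndufb11 changed by -0.45 ± 0.17 (adjusted p = 0.0601, not called) with VEH and fell by -0.76 ± 0.18 (adjusted p = 0.00471) with HDM. In the other direction, Ndufs8, a subunit carrying iron-sulphur clusters, rose with VEH by 0.64 ± 0.17 (adjusted p = 0.0151; 0.0511 without normal VEH replicate 1). Ndufs1, the largest iron-sulphur subunit, rose with HDM by 0.80 ± 0.19 (adjusted p = 0.00586). Ndufb11 shares its span with Rbm10, and Ndufs1 with Eef1b2 and Ino80dos. Whether counting used the strand is not given in the sources used here, so reads of overlapping genes may not have been told apart.

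Of the 8 assembly factors, which help build complex I without staying in it, 1 was called with VEH (lower) and 2 with HDM (1 in each direction). These are 12.5% and 25%, against 38.9% and 51.9% of all genes. Ndufaf2 stood at 10.1, 10.2 and 10.3 CPM in normal VEH, 4.46, 5.97 and 6.63 in normal HDM, 13.2, 17.1 and 13.1 in tumour VEH, and 11.3, 10.8 and 16.8 in tumour HDM. Its lowest group was normal HDM, which lay apart from all others. Its log2 change between tumour and normal was 0.50 ± 0.24 (adjusted p = 0.12) with VEH and 1.19 ± 0.25 (adjusted p = 0.00279) with HDM. Ndufaf3 fell with HDM by -1.44 ± 0.27 (adjusted p = 0.00153) and with VEH by -0.73 ± 0.26 (adjusted p = 0.0486). The first overlaps Smim15 and Gm56593, the second Impdh2 and 4833445I07Rik. None of the 4 subunits of complex II, succinate dehydrogenase, which also works in the tricarboxylic acid cycle, was called in either comparison, and their log2 changes ran from -0.09 to 0.45 with VEH and from -0.03 to 0.34 with HDM. By the same edgeR test 2 of these 4 had an unadjusted p below 0.05 with VEH and 0 with HDM, where 49.8% and 57.9% of all genes did.

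Of the 8 nuclear complex III genes 2 were called with VEH (Uqcrc1 higher by 0.50 ± 0.13, Uqcr11 lower by -0.62 ± 0.20) and 1 with HDM (Uqcrh, -0.44 ± 0.17). These are 25% and 12.5%, against 38.9% and 51.9% of all genes. Of the 18 nuclear complex V genes tested 4 were called with VEH (22.2%) and 5 with HDM (27.8%), all higher. That was near the 18.2% and 23.0% of all genes called higher. In this set 0 were called lower, against 20.6% and 28.9% of all genes. The median log2 changes were 0.07 and 0.12. Atp5f1b, the catalytic beta subunit of ATP synthase, stood at 1220, 928 and 1120 CPM in tumour VEH and 967, 1017 and 1222 in tumour HDM, against 544, 630 and 576 in normal VEH and 575, 706 and 477 in normal HDM. All 6 tumour libraries were above all 6 normal ones. It rose by 0.90 ± 0.18 (adjusted p = 0.00348) with VEH and 0.87 ± 0.18 (adjusted p = 0.00258) with HDM.

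Atp5f1c, the gamma subunit that forms the turning shaft, stood at 136, 169 and 125 CPM in normal VEH, 142, 147 and 108 in normal HDM, 286, 244 and 262 in tumour VEH, and 205, 243 and 307 in tumour HDM. It too separated all tumours from all normal libraries, with log2 changes of 0.88 ± 0.19 (adjusted p = 0.00483) and 0.93 ± 0.19 (adjusted p = 0.00231). Atp5f1b overlaps Gm47438 and Atp5f1c overlaps Kin and Gm75234. Atp5mc1 and Atp5mc2, genes for the c subunit of the rotor ring, rose with VEH by 0.64 ± 0.17 (adjusted p = 0.0153) and 0.56 ± 0.17 (adjusted p = 0.0223). These calls were lost without normal VEH replicate 3 (adjusted p = 0.0522 and 0.0772), and for Atp5mc2 also without the 4 libraries of conflicting prefixes (0.0598). With HDM Atp5mc2 rose by 0.56 ± 0.17 (adjusted p = 0.0164), while Atp5mc1 had a log2 change of 0.40 ± 0.17 (adjusted p = 0.0743). Atp5mk, a small membrane subunit whose span overlaps Taf5 and Pdcd11, rose with HDM by 0.84 ± 0.22 (adjusted p = 0.00974) and had a log2 change of 0.12 ± 0.22 with VEH.

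Complex IV held the largest nuclear falls, and these lay in isoforms that are known from particular tissues or conditions. Cox4i2, an alternative form of subunit 4 known from lung, stood at 60.6, 15 and 49.1 CPM in normal VEH, 33.9, 18.9 and 61.8 in normal HDM, 3.78, 7.59 and 2.72 in tumour VEH, and 3.12, 1.67 and 0.637 in tumour HDM. Tumours were below normal lung without overlap, and the normal libraries varied among themselves, with replicate 2 the lowest in each normal group. Its log2 change was -3.14 ± 0.72 (adjusted p = 0.00756) with VEH and -4.41 ± 0.77 (adjusted p = 0.00118) with HDM. The common form Cox4i1 ranged from 227 to 388 CPM over all libraries, with log2 changes of -0.25 ± 0.15 and -0.19 ± 0.15, neither of them called.

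Ndufa4l2, a relative of the complex IV subunit Ndufa4 known for its induction in low oxygen, stood at 39.5, 7.55 and 22.7 CPM in normal VEH, 23.5, 14.8 and 41.5 in normal HDM, 3.78, 7.40 and 3.28 in tumour VEH, and 3.04, 2.22 and 1.67 in tumour HDM. Normal VEH replicate 2 and tumour VEH replicate 2 nearly met, and with HDM the groups were well apart. Its log2 change was -2.27 ± 0.60 (adjusted p = 0.0139) with VEH and -3.53 ± 0.63 (adjusted p = 0.00128) with HDM. The VEH call was lost without normal VEH replicate 1 (log2 change -1.65, adjusted p = 0.0552), tumour VEH replicate 1 (-2.01, 0.0622) or tumour VEH replicate 3 (-1.95, 0.0642). Its span overlaps Shmt2. Ndufa4 itself had log2 changes of -0.52 ± 0.27 and -0.45 ± 0.27, not called; without tumour VEH replicate 2 it was called with VEH (-0.95, adjusted p = 0.00499), and with only the groups compared with HDM (-0.49, 0.0343).

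Cox6a2, the heart and muscle form of subunit 6a, stood at 2.96, 15.5 and 5.09 CPM in normal VEH, 20.6, 16.4 and 7.33 in normal HDM, 0.34, 2.01 and 0.646 in tumour VEH, and 0.37, 0.683 and 0.121 in tumour HDM. Normal VEH replicate 2 and normal HDM replicates 1 and 2, the 3 libraries with the highest macrophage and monocyte marker sums, were the highest. Summed cardiac muscle markers did not follow the same order (283, 60.2 and 45.9 CPM in normal VEH, 212, 492 and 466 in normal HDM, at most 17.9 CPM in tumours). Summed skeletal muscle markers did not follow it either. Summed adipose markers were also highest in normal VEH replicate 2 (88.8 CPM) and normal HDM replicates 1 and 2 (94.5 and 87.7 CPM). They were 23.5 to 46.7 CPM in the other normal libraries. Summed alveolar markers were highest in the same 3 libraries too. Any of these sums can be carried by a gene with many counts, and the part of any of these cell types was not tested. The log2 change of Cox6a2 was -2.96 ± 0.85 (adjusted p = 0.0194) with VEH and -5.23 ± 0.95 (adjusted p = 0.00135) with HDM. The VEH call was lost without normal VEH replicate 2 (-1.99, 0.0628), tumour VEH replicate 1 (-2.47, 0.0758), tumour VEH replicate 3 (-2.65, 0.0831) or the 4 libraries of conflicting prefixes (-1.66, 0.174).

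Cox6b2, the testis form of subunit 6b, ranged from 5.47 to 9.90 CPM in normal lung and from 0.0607 to 2.83 CPM in tumours, highest there in tumour VEH replicate 2. It changed by -2.48 ± 0.84 (adjusted p = 0.039) with VEH and -4.94 ± 0.97 (adjusted p = 0.0021) with HDM. The VEH call was lost without any 1 of normal VEH replicates 1, 2 and 3 and tumour VEH replicates 1 and 3 (adjusted p = 0.1, 0.0512, 0.0613, 0.123 and 0.14) or the 4 of conflicting prefixes (0.198), and with the prefix block (0.106), the replicate number as a block (0.06), no filter (0.0771) or only the groups compared (0.0542). Cox8b, a muscle form of subunit 8, had 114 counts in the 3 normal VEH libraries, 74 in normal HDM, 6 in tumour VEH and 0 in tumour HDM. With HDM it was therefore at least 27.4-fold higher in normal lung, taking 3 counts over the 3 tumour libraries as the limit that 0 counts allow, for counting error only. With VEH its log2 change was -4.20 ± 1.20 (adjusted p = 0.0238), lost without normal VEH replicates 1 or 3 or tumour VEH replicates 1 or 3 (adjusted p = 0.0633, 0.0676, 0.0702 and 0.0734) or the 4 of conflicting prefixes (0.0622), and with the prefix block (0.107) or the replicate number as a block (0.0504). Its span overlaps Psmd13. Cox7a1, another muscle form, had 16 to 67 counts in the normal libraries and was not called (-1.16 ± 0.64 and -1.45 ± 0.64), but was called with VEH without tumour VEH replicate 2 (-2.13, 0.0254) and with HDM without normal HDM replicate 1 (-1.82, 0.0429) and by DESeq2 (-1.52, 0.0375). The common partners Cox6a1, Cox6b1, Cox7a2, Cox7b and Cox8a were not called in either comparison, with log2 changes of -0.37 to 0.12 with VEH and -0.30 to 0.25 with HDM, but Cox6b1 was called lower under other settings. With VEH these were leaving out tumour VEH replicate 2 (-0.48, adjusted p = 0.0257), DESeq2 size factors (0.0396), the strict filter (0.0273) and the DESeq2 Wald test (0.0236), and with HDM the strict filter (0.0343). For 4 of them, all but Cox6b1, the sign with VEH turned under at least 1 setting (library size scaling, another filter or without single libraries).

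**Figure D4:**
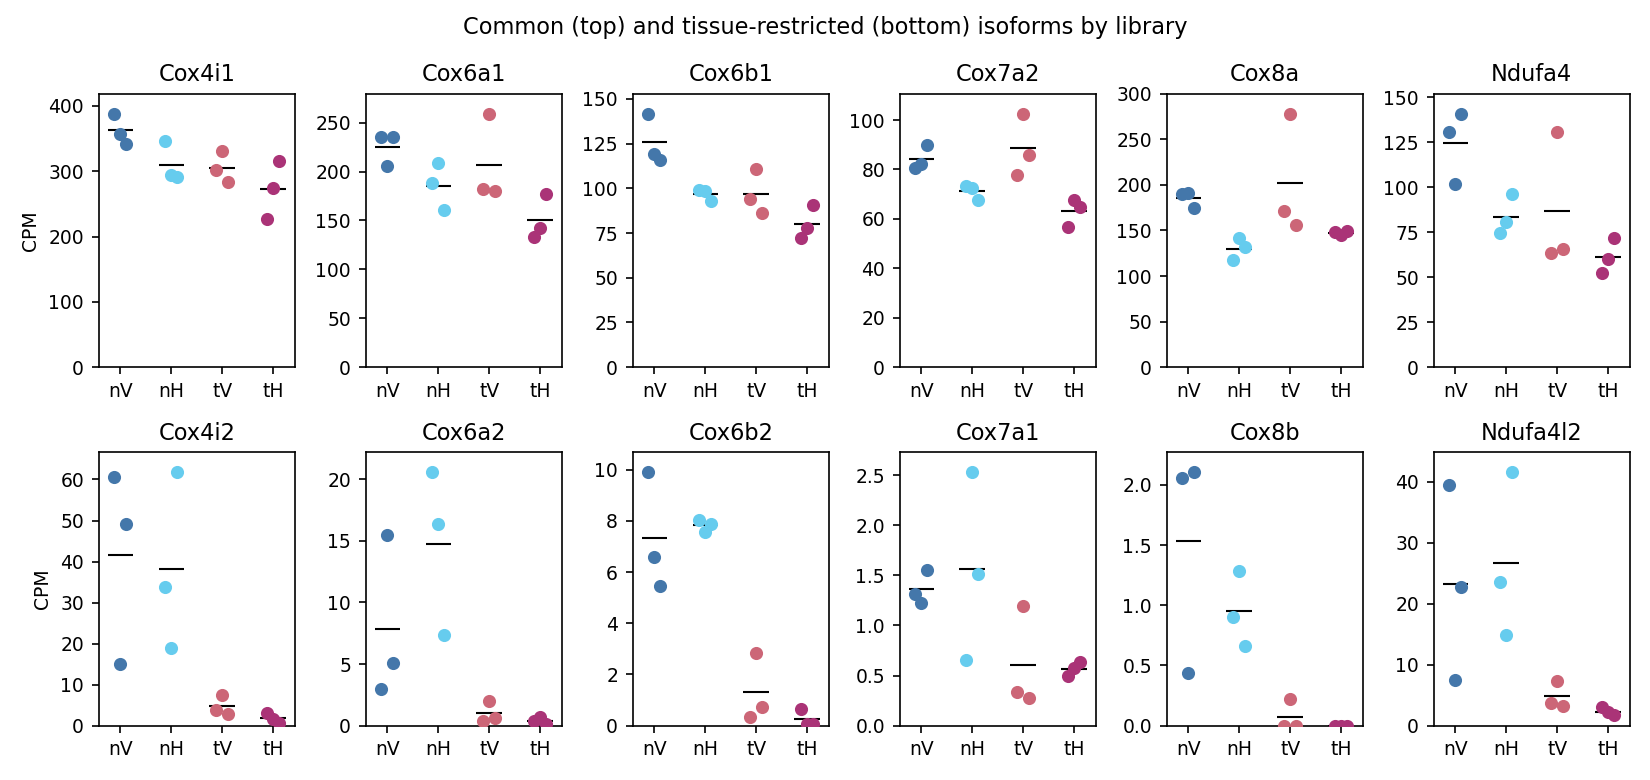
Level in CPM of 6 common subunit genes (top row) and of the tissue-restricted form of each (bottom row) in every library; points are libraries, bars group means, with n for normal, t for tumour, V for VEH and H for HDM under the points. The restricted forms in the bottom row have lower means in tumours (Cox7a1 too, though its change was not called), while the common forms overlap or differ by little.

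Of the 19 nuclear complex IV genes tested 31.6% were called with VEH and 42.1% with HDM, against 38.9% and 51.9% of all genes. Outside the restricted isoforms complex IV had 1 call with VEH and 3 with HDM, all higher: Cox5b in both (0.54 ± 0.18 and 0.55 ± 0.18), and with HDM Cox7c (0.46 ± 0.15) and Cox5b-ps (1.06 ± 0.38, at 0.492 to 1.56 CPM). Cox5b-ps is annotated as protein-coding, and its likeness to Cox5b makes its counts uncertain.

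HDM was next compared with VEH within each tissue. In normal lung 0 of the 106 members, and 0 of all 22190 genes (0%), passed the adjusted threshold in edgeR's quasi-likelihood test, with 28 nuclear members (all lower) and 0 mitochondrial genes at an unadjusted p below 0.05. DESeq2's Wald test called 3 members, Cox7c, Atp5mj and Atp5mk, all lower. The share of all genes called by DESeq2 is not given here, so this count cannot be set against a background. The nuclear members nevertheless leaned 1 way: 87 of 94 had a log2 change below 0 against 51.5% of all genes, and for 40 of the 94 every HDM library was below every VEH library, against 5.85% of all genes. Sdha alone had every HDM library above every VEH library, against 4.47% of all genes. Unadjusted p below 0.05 was reached with a lower level by 3.62% of all genes and with a higher level by 1.92%. The median log2 change was -0.28 for the nuclear members, -0.74 for the mitochondrial genes and -0.01 for all genes.

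Atp5mj, a small ATP synthase subunit, stood at 43.8, 42.4 and 45.5 CPM in normal VEH and 22.2, 29.4 and 24.9 in normal HDM. The groups were clearly apart, with both libraries of conflicting prefixes in the range of their label. The log2 change was -0.78 ± 0.13 (adjusted p = 0.801). Cox7c, a small complex IV subunit, stood at 92.4, 85.3 and 91.2 CPM with VEH and 54.9, 51.7 and 54.5 with HDM (-0.74 ± 0.15), and Atp5mk at 51.3, 43.9 and 77.0 with VEH and 23.7, 29.3 and 31 with HDM (-1.04 ± 0.22), both with an adjusted p of 0.801. Atp5mj overlaps Gm36757 and Gm59552. In the other direction, Sdha, the flavoprotein of complex II, had a log2 change of 0.16 ± 0.11, Cox6a2 of 0.91 ± 0.77 and Atp5f1a, the alpha subunit of ATP synthase, of 0.10 ± 0.14. The mitochondrial genes all had log2 changes below 0, from -0.50 for mt-Nd5 to -1.65 for mt-Nd3, and the groups overlapped for each of the 12. With the prefix as a block 9 of the 12 turned to above 0, but that block compares HDM with VEH only through the prefixes of conflicting labels. Without the 4 libraries of those prefixes the median was -1.34 for the mitochondrial genes and -0.38 for the nuclear members.

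In tumours 0 of the 106 members passed, where 21 of all genes (0.0946%) did. At an unadjusted p below 0.05, 27 nuclear and 11 mitochondrial members were lower and 0 higher, against 11.3% of all genes lower and 5.33% higher. DESeq2's Wald test called 11 members, all lower, 6 of them mitochondrial. Its share of all genes called is not given here, and the edgeR share does not apply to it. A log2 change below 0 was found for 93 of 94 nuclear members and 12 of 12 mitochondrial genes, against 52.7% of all genes, and the groups did not overlap for 29 nuclear and 10 mitochondrial members, all lower, against 10.7% of all genes. The medians were -0.31, -1.25 and -0.03. With the prefix as a block the median of the mitochondrial genes moved to -0.19 and that of the nuclear members to -0.26. As in normal lung, that block compares HDM with VEH only through the prefixes of conflicting labels. Without the 4 libraries of those prefixes these medians were -1.66 and -0.39.

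The members with the smallest p in tumours were Cox5a, Cox7a2 and mt-Nd2. Cox5a stood at 84.3, 84.8 and 82.7 CPM with VEH and 61.8, 61.5 and 52.0 with HDM, without overlap (-0.52 ± 0.13, adjusted p = 0.150). Cox7a2 stood at 77.6, 103 and 86.0 CPM with VEH and 56.8, 67.8 and 64.8 with HDM (-0.49 ± 0.13, adjusted p = 0.165). mt-Nd2 stood at 581, 1609 and 642 CPM with VEH and 338, 316 and 208 with HDM (-1.72 ± 0.47, adjusted p = 0.171). Ndufs1 alone had a log2 change above 0 (0.14 ± 0.19), and below 0 without tumour VEH replicate 2 (-0.04). Because both comparisons with HDM tumours or HDM normal lung share groups with the tumour-against-normal comparisons, their values are set side by side and not correlated.

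The shift of the nuclear members between HDM and VEH was near that of all protein-coding genes of their length up to 2000 bases, but not above 4000 bases. The 94 nuclear members tested had a median length of 1559.5 bases as given in the table, against 4693 bases for 11011 protein-coding genes with an average log2 CPM over 3. Among members of up to 1000 bases (n = 23) the median log2 change was -0.45 in normal lung and -0.46 in tumours, and for the 188 protein-coding genes of that length it was -0.43 and -0.41. From 1001 to 2000 bases the members (n = 38) had -0.27 and -0.36 and the 1024 protein-coding genes -0.23 and -0.30. From 2001 to 4000 bases the members (n = 22) had -0.24 and -0.25 and the 3201 protein-coding genes -0.09 and -0.14. From 4001 to 8000 bases the members, only 10, had -0.22 and -0.23 (80% and 100% below 0), while the 4402 protein-coding genes had medians of 0.0018 and 0.036. The 1 member over 8000 bases, Ndufs1, had -0.20 and 0.14. Of all protein-coding genes of up to 1000 bases 89.9% had a log2 change below 0 in normal lung and 91.0% in tumours. Spearman's rho between length and log2 change was 0.27 and 0.42 over the 94 members and 0.31 and 0.39 over the 11011 genes, as a description across genes of the same libraries. The part of length, or of what varies with it, in the members' shift was not tested.

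**Figure D5:**
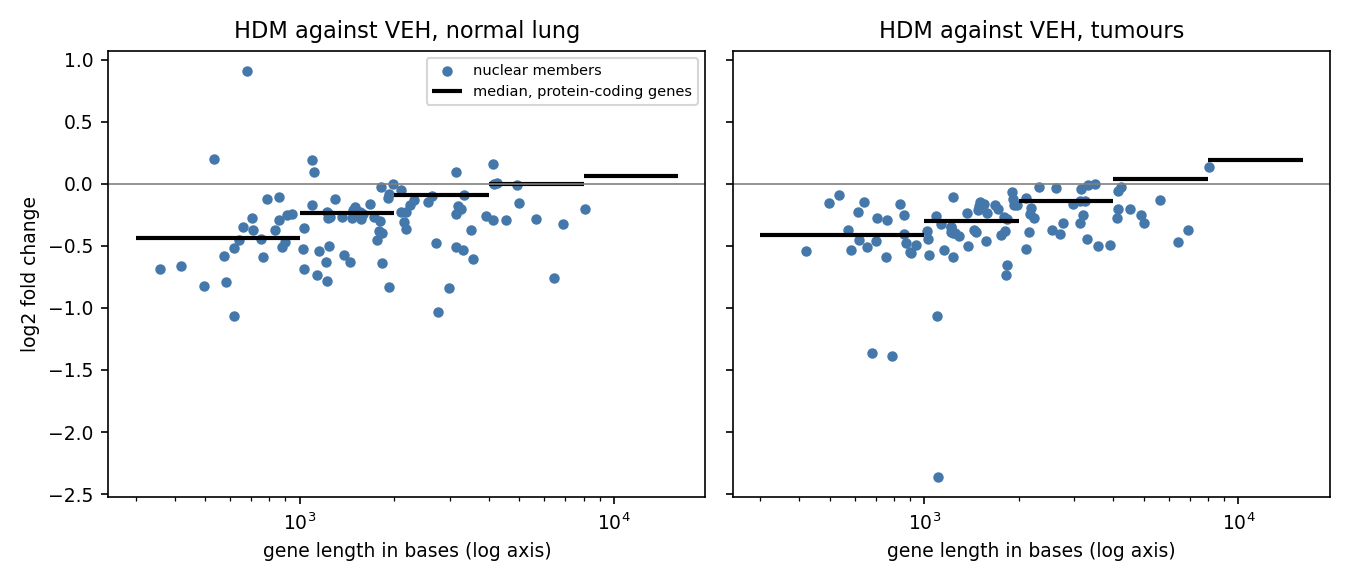
Log2 fold change of HDM against VEH for each nuclear member tested by gene length (log axis), in normal lung (left) and tumours (right, without Cox8b); the black bars are the medians of protein-coding genes in 5 length classes, the last of which covers all genes over 8000 bases. Short members and short genes in general lie below 0, at medians of -0.45 and -0.43 in normal lung up to 1000 bases.

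No member passed the test of whether the tumour-against-normal difference itself differed between HDM and VEH (0 of 106 by edgeR, 0% of all genes, and 0 by DESeq2, with 2 members and 9.39% of all genes at an unadjusted p below 0.05). The mitochondrial genes had interaction terms below 0 in 12 of 12, with a median of -0.67, and the nuclear members a median of 0.01. The 2 members were Atp5mj (0.43 ± 0.19, adjusted p = 0.525) and Atp5mk (0.72 ± 0.31, adjusted p = 0.525), each of which had its lowest level in normal HDM. Ndufb4 had 0.70 ± 0.33, and Cox6b2, Cox6a2 and Ndufaf3 had -2.46 ± 1.20, -2.27 ± 1.16 and -0.71 ± 0.37. A larger mitochondrial difference with HDM than with VEH was therefore not shown gene by gene. Without the 4 libraries of conflicting prefixes the interaction medians were -0.44 for the mitochondrial genes and -0.04 for the nuclear members.

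The libraries with the highest and lowest mitochondrial share among tumours also stood apart in markers of lung cells. Tumour VEH replicate 2, with 1.73% of counts in mitochondrial subunits, had the highest tumour sums of airway (21887 CPM), alveolar (9787 CPM) and endothelial markers (826 CPM). Tumour HDM replicate 3, with 0.333%, had the lowest (24.4, 125 and 146 CPM). Red blood cell markers summed to 126.6 to 959.0 CPM in tumours and 954.0 to 3298 CPM in normal lung, and all 5 were called lower in tumours in both comparisons. In tumours the red blood cell and the endothelial sums each had the same order of the 6 libraries as the mitochondrial to nuclear ratio. All 12 genes of the airway, alveolar and endothelial lists had counts in each tumour group, and all 12 endothelial genes were called lower in tumours in both comparisons. Of the 12 airway genes 1 was called lower with VEH and 8 with HDM, while 4 and 1 had log2 changes above 0. Of all genes 20.6% were called lower with VEH and 28.9% with HDM. A gene with many counts can carry a marker sum. In normal lung the summed endothelial markers were 2335 to 5013 CPM, and airway markers 25054 to 113882 CPM, and the lists did not order the libraries alike. Normal VEH replicate 1, with the highest mitochondrial share, was highest in airway and lowest in alveolar markers (19034 CPM), and normal HDM replicates 1 and 2, with the lowest shares, were highest in alveolar markers (49502 and 44852 CPM). The part of these cell types in the mitochondrial difference was not tested.

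Other mitochondrial genes encoded in the nucleus were taken from lists. Of 37 assembly and electron carrier genes outside the naming rule 12 were called with VEH (8 higher, 4 lower) and 15 with HDM (13 higher, 2 lower). These are 32.4% and 40.5%, below the 38.9% and 51.9% of all genes, and the medians were 0.10 and 0.25. Cycs, cytochrome c, rose by 0.91 ± 0.19 and 0.83 ± 0.19, and Surf1, an assembly factor of complex IV, fell by -0.68 ± 0.15 and -0.80 ± 0.15. Of 78 mitochondrial ribosomal protein genes, which serve translation of the mitochondrial subunits, 25 were higher and 2 lower with VEH and 38 and 2 with HDM, with medians of 0.36 and 0.45. The share called was 34.6% and 51.3%, against 38.9% and 51.9% of all genes. A log2 change below 0 was found for 25.6% and 16.7% of them, against 53.6% and 52.3% of all genes.

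Genes that act on mitochondrial DNA and RNA were higher or not called in tumours, beside the lower mitochondrial subunits. For DNA maintenance and transcription 6 of 17 were higher with VEH (35.3%) and 10 with HDM (58.8%), and 0 lower, with medians of 0.38 and 0.75. Of all genes 18.2% and 23.0% were called higher. Polrmt, the mitochondrial RNA polymerase, rose by 1.26 ± 0.26 and 1.33 ± 0.26, and Tfam, which packages mitochondrial DNA and starts its transcription, rose with HDM by 0.48 ± 0.16 (0.28 ± 0.16 with VEH, adjusted p = 0.171). For RNA processing and stability 10 of 17 were higher with VEH (58.8%) and 12 with HDM (70.6%), and 0 lower, with medians of 0.66 and 0.76. Lrpprc and Slirp, partners that stabilise mitochondrial messenger RNAs, rose by 1.03 ± 0.12 and 0.78 ± 0.13 with VEH and by 1.19 ± 0.13 and 1.07 ± 0.13 with HDM. Pnpt1, a subunit of the mitochondrial RNA degradosome, rose by 1.68 ± 0.19 and 1.89 ± 0.19.

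Regulators of mitochondrial biogenesis split in both directions. Of 18 tested 6 were higher and 4 lower with VEH, and 7 and 6 with HDM. These are 55.6% and 72.2% called, against 38.9% and 51.9% of all genes. Pprc1, a coactivator related to PGC-1, rose by 1.98 ± 0.23 and 1.99 ± 0.23, and Myc by 2.95 ± 0.94 and 4.23 ± 1.00. Pparg fell by -2.92 ± 0.60 and -3.65 ± 0.62, and Ppargc1a, which encodes the coactivator PGC-1 alpha, fell with HDM by -4.97 ± 1.10 (-2.34 ± 0.95 with VEH, adjusted p = 0.073). Of 17 tricarboxylic acid cycle genes 6 were higher and 2 lower in each comparison (47.1% called, against 38.9% and 51.9% of all genes). Mdh2 rose by 0.94 ± 0.18 and 0.78 ± 0.18, and Idh2 fell by -0.69 ± 0.20 and -0.53 ± 0.20.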

How the data were processed

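RNA was measured in 12 mouse lung libraries made from total RNA by a stranded dUTP protocol with paired reads, per the labels' protocols, which leave unresolved whether RNA was selected by poly(A) or depleted of ribosomal RNA. The deposited table holds raw counts of reads per gene and each gene's length in bases. Per the submitters' processing notes, Trim Galore, STAR and featureCounts (Subread) were used with build mm39; versions, the annotation release, the strand setting and the treatment of reads with several matches are not given in the sources used here. Of 78298 identifiers 78168 were found in GENCODE M39, which gave symbols and positions; the rest held 0.143% of counts.

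Groups came from the labels. The labels do not say that replicates are separate animals, so p-values measure the spread between these libraries, which may be technical. Counts were tested with edgeR 4.0.16 (R 4.3.3, limma 3.58.1): filterByExpr with a minimum count of 10, TMM scaling, robust quasi-likelihood F-test over all 12 libraries with 1 coefficient per group and no block, Benjamini-Hochberg over all 22190 genes tested, called at adjusted p below 0.05. CPM values are scaled by TMM. Errors beside log2 fold changes are standard errors from the F statistic. DESeq2 1.42.0 (Wald test, without independent filtering or outlier removal) was an alternative, as were other scalings and filters, blocks by replicate number and by prefix, only the groups compared, leaving out libraries, and leaving out members that overlap another tested gene. Nuclear copies of mitochondrial DNA were found with blastn 2.17.0 and read with samtools 1.23.1. The procedure was tested on simulated counts.

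The members and lists were chosen with earlier results of these data known, so no p-value over the list is given and counts over members are descriptions. Genes were named by a rule: all mitochondrial subunits, the 5 largest called rises and falls of nuclear members at an average log2 CPM of at least 3 in each tumour comparison, the 3 smallest p-values per direction elsewhere, Atp5mj, the restricted isoforms and their partners, and list genes. The other called genes of complexes III and IV were added after their values were seen, as was an alternative that keeps only the mitochondrial genes outside the chromosome 1 copy. Of the 106 members tested 68 overlap another tested gene.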

Additional observations from a re-analysis of the deposited data

How the results depend on the processing

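With VEH 30 members were called between tumour and normal lung. That count was 17 without the 4 libraries of conflicting prefixes and ran from 15 (without normal VEH replicate 3) to 43 (without tumour VEH replicate 2) when single libraries were left out; fewer libraries were then tested, and the cause was not tested further. With HDM 36 were called, and 27 to 34 without single libraries. For HDM against VEH, where edgeR called 0 members, DESeq2 called 3 in normal lung and 11 in tumours. The share of all genes called is given only for the reported edgeR fit. Counts of members called under other settings in this section therefore have no background beside them. The median log2 change of the mitochondrial minus that of the nuclear members was -1.92 with VEH (-2.29 to -1.56 without single libraries) and -2.48 with HDM (-2.64 to -2.20), and it kept its direction under each setting tried. With only the 5 mitochondrial genes outside the chromosome 1 copy, a setting chosen after seeing the data, it was -1.98 and -2.68.

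The replicate block (replicate number) gave 23 and 31 members called and medians of -1.95 and -2.51. Same-numbered libraries correlated at -0.45 to 0.39 in their deviations from the group means and libraries of one prefix at -0.27 to 0.25, and the reported analysis has no block. With the prefix as a block the tumour comparisons gave 21 and 24 members and -2.04 and -2.42, but for HDM against VEH the median difference moved from -0.45 to 0.32 in normal lung and from -0.94 to 0.071 in tumours. That block compares HDM with VEH only through the 2 prefixes of conflicting labels, as the libraries of every other prefix share their treatment. Without the 4 libraries of conflicting prefixes the median difference was -1.98 (VEH) and -2.38 (HDM) between tumour and normal lung. For HDM against VEH it was then -0.96 in normal lung and -1.27 in tumours, and for the interaction -0.40. The cause of these shifts was not tested further.

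No gene whose sign turned was called. With the prefix block, log2 changes of HDM against VEH in normal lung became 0.18 for mt-Nd1, 0.11 for mt-Nd2, 0.19 for mt-Nd4, 0.65 for mt-Nd4l, 0.34 for mt-Nd5, 0.14 for mt-Nd6, 0.15 for mt-Co1, 0.052 for mt-Co2 and 0.088 for mt-Atp6. In tumours they became 0.11 for mt-Co2 and 0.091 for mt-Atp6, and the interaction 0.56 for mt-Nd3, 0.061 for mt-Co2, 0.23 for mt-Co3 and 0.0029 for mt-Atp6. Between tumour and normal with VEH, Cox7b became 0.041 with that block, 0.10 with library size scaling and 0.025 without a filter, Cox6a1 0.015 with library size scaling, and Cox7a2 -0.0025 with the strict filter. With HDM, Cox7a2 became 0.00049 with library size scaling. Without the 4 libraries of conflicting prefixes Cox6a1 became 0.0096 and Cox7b 0.17 with VEH, and the interaction 0.19 for mt-Co2 and 0.059 for mt-Co3.

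Leaving out single libraries with VEH gave ranges of -0.31 to 0.067 for Cox6a1, -0.041 to 0.26 for Cox7a2, -0.16 to 0.20 for Cox7b and -0.18 to 0.37 for Cox8a. With HDM it gave -0.23 to 0.033 for Cox4i1 and -0.16 to 0.0071 for Cox7a2. For HDM against VEH it gave -0.0017 to 0.19 for Atp5f1a in normal lung and -0.045 to 0.31 for Ndufs1 in tumours. For the interaction it gave -1.16 to 0.59 for mt-Nd3, -0.58 to 0.29 for mt-Co2, -0.56 to 0.26 for mt-Co3 and -0.54 to 0.32 for mt-Atp6. Of the named genes called, 6 of 10 mitochondrial and 4 of 13 nuclear with VEH were called in every setting, and 8 of 12 and 13 of 13 with HDM. Depth limits genes with few counts, such as mt-Atp8 with 39 counts in all libraries and Cox8b with 0 counts in tumour HDM.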
